A study of Homo sapiens with 12 samples.

Results

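The nuclear long noncoding RNAs (lncRNAs) MALAT1, NEAT1, TUG1, KCNQ1OT1 and MEG3 were found by symbol in the expression table, which held all 5 of them among 25268 genes. The libraries come from HEK293, an established human embryonic kidney cell line, transiently transfected with 2 μg of the plasmid pCMV6-HIS-HA-RBMX, which expresses tagged RBMX, an RNA-binding protein of the hnRNP family, or with the mock empty vector, here called control. There were 3 cultures per vector, and each gave 1 total and 1 polysomal RNA library, 12 in all. Lysates were cleared of nuclei by centrifugation and separated on a sucrose gradient. Polysomal RNA came from the fractions holding RNAs loaded with several ribosomes, and total RNA was a pool of 20% of every fraction, so it is the RNA of the lysate without nuclei and not of whole cells. All groups received cycloheximide before lysis, and RNA was extracted 48 h after transfection. The values are FPKM (fragments per kilobase of transcript, relative to library size), which are levels per length and can be compared between genes only as far as the transcript model behind each is right.

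Nuclear lncRNAs are transcribed by RNA polymerase II but stay largely in the nucleus, where they act as scaffolds or regulate neighbouring genes. NEAT1 is the architectural RNA of paraspeckles, bodies that assemble around it with the proteins SFPQ, NONO and PSPC1. MALAT1 is enriched in nuclear speckles, which store splicing factors, and TUG1 is found in both nucleus and cytoplasm. KCNQ1OT1 and MEG3 are imprinted RNAs, the first an antisense silencer of the KCNQ1 domain and the second a maternally expressed RNA of the DLK1-DIO3 domain. The transcripts differ in their 3′ ends. Those of MALAT1 and of the long NEAT1 isoform are made by RNase P, which leaves an A-rich tract encoded in the genome in place of a poly(A) tail, whereas TUG1 and the short NEAT1 isoform are polyadenylated.

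In GENCODE v29 on GRCh38, MALAT1 lies at chr11:65497688-65506516 on the plus strand, and its longest transcript has 8708 bases in 1 exon. NEAT1 lies upstream on the same strand at chr11:65422774-65445540, with a longest transcript of 22743 bases in 1 exon. TUG1, annotated as a bidirectional promoter lncRNA, lies at chr22:30969245-30979395 on the plus strand. KCNQ1OT1 (chr11:2608328-2699994, minus strand, 91667 bases in 1 exon) is antisense within KCNQ1, and MEG3 lies at chr14:100779410-100861031 on the plus strand. The 3′ ends of the 3 RNAs with appreciable levels are shown because they bear on whether an RNA carries a poly(A) tail. Each is read 5′ to 3′, with capitals marking the 11-base A-rich word shared by NEAT1-202 and MALAT1-202 (AAAAAGCAAAA), or, in TUG1-216, the polyadenylation signal AATAAA.
NEAT1-202, chr11:65445511-65445540, the last bases of the exon: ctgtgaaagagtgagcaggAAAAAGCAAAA
MALAT1-202, chr11:65506087-65506116, exonic, 353 bases before the annotated end: ttttctagcttaaaaaaaaAAAAAGCAAAA
TUG1-216, chr22:30978811-30978840, exonic, 7 bases before the annotated end: gttatgtgaaccAATAAAtacccttttttg
Read on the transcript strand only, the shared word occurred in the last 30 bases of 0.0417% of 14378 lincRNA transcripts and 0.0241% of 83129 protein-coding transcripts. In MALAT1-202 it occurred at a second place, starting at base 753. The word was picked as the longest in the last 30 bases of NEAT1-202 that lies anywhere in MALAT1-202. The shares, counted at transcript ends, thus do not give the chance of such a match. AATAAA stood in the last 50 bases of 33.1% of the lincRNA and 35.5% of the protein-coding transcripts, and was present there in TUG1-216 and in the annotated end of MALAT1-202 but in neither NEAT1-202 nor the shorter NEAT1-201. TUG1-216 is 1 of 20 annotated TUG1 transcripts and not the longest, which is TUG1-217 with 7469 bases. No other TUG1 end was searched for the signal. These matches describe the annotated letters and no processing site was measured.

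RBMX itself, read first as a check of the labels, had an FPKM of 147, 145 and 108 in control total RNA and of 1731, 2073 and 1460 in RBMX total RNA, with 87.4 to 148 in control and 1072 to 1328 in RBMX polysomal RNA. All 6 libraries labelled RBMX lay above all control libraries. The FPKM of HEK293 markers ranged from 2.49 (PAX2) to 577 (VIM), while PTPRC, PECAM1, ALB and DES reached at most 0.535 and COL1A1 at most 8.61. Spearman correlations between replicates, over 14168 genes other than small RNAs, were 0.976 to 0.998. In the libraries of control replicate 3 the median absolute log2 deviation from the other replicates was 0.186 (total) and 0.227 (polysomal), against 0.0744 to 0.137 elsewhere. In RBMX polysomal replicate 2, 43 genes were at least 2 times their level in every other library, against 0 to 2 such genes elsewhere, and 37 of the 43 were clustered histone genes. Results on the lncRNAs are therefore given with and without these 2 cultures where they differ.

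NEAT1, TUG1 and MALAT1 were expressed at appreciable levels, and KCNQ1OT1 and MEG3 were listed near 0 FPKM. Mean FPKM over the 12 libraries was 109 for NEAT1, 46.7 for TUG1 and 18.9 for MALAT1, above the means of 95.5%, 89.9% and 78.0% of all genes in the table. KCNQ1OT1 ranged from 0.0126 to 0.0441 FPKM, with its highest value in RBMX polysomal replicate 2. It was listed at 0 in 0 of 12 libraries. Its annotated transcript has 91667 bases, and FPKM divides by length, so its low FPKM need not mean that it was absent. MEG3 was listed at 0 in 4 libraries, among them all 3 of control total RNA, and its highest value was 0.0318. These 2 genes did not reach the mean FPKM of 0.5 asked of tested genes, so no fold change is given for them. NEAT1 had the highest level per length of the 5 in every library. TUG1 lay above MALAT1 in 11 of 12, the exception being RBMX polysomal replicate 2.

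The order of NEAT1 and TUG1 was clear in total RNA and less so in polysomal RNA. In total RNA NEAT1 ranged from 97.2 to 183 FPKM and TUG1 from 41.7 to 55.3, with no overlap. In control polysomal RNA NEAT1 had 49.4, 49.5 and 114 FPKM against 47.4, 46.5 and 56.0 for TUG1, so these neighbours in the order overlapped. In RBMX polysomal RNA the lowest NEAT1 value was 47.8 and the highest TUG1 value 46.3. TUG1 and MALAT1 did not overlap in total RNA or in control polysomal RNA. In RBMX polysomal RNA they did.

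**Figure D1:**
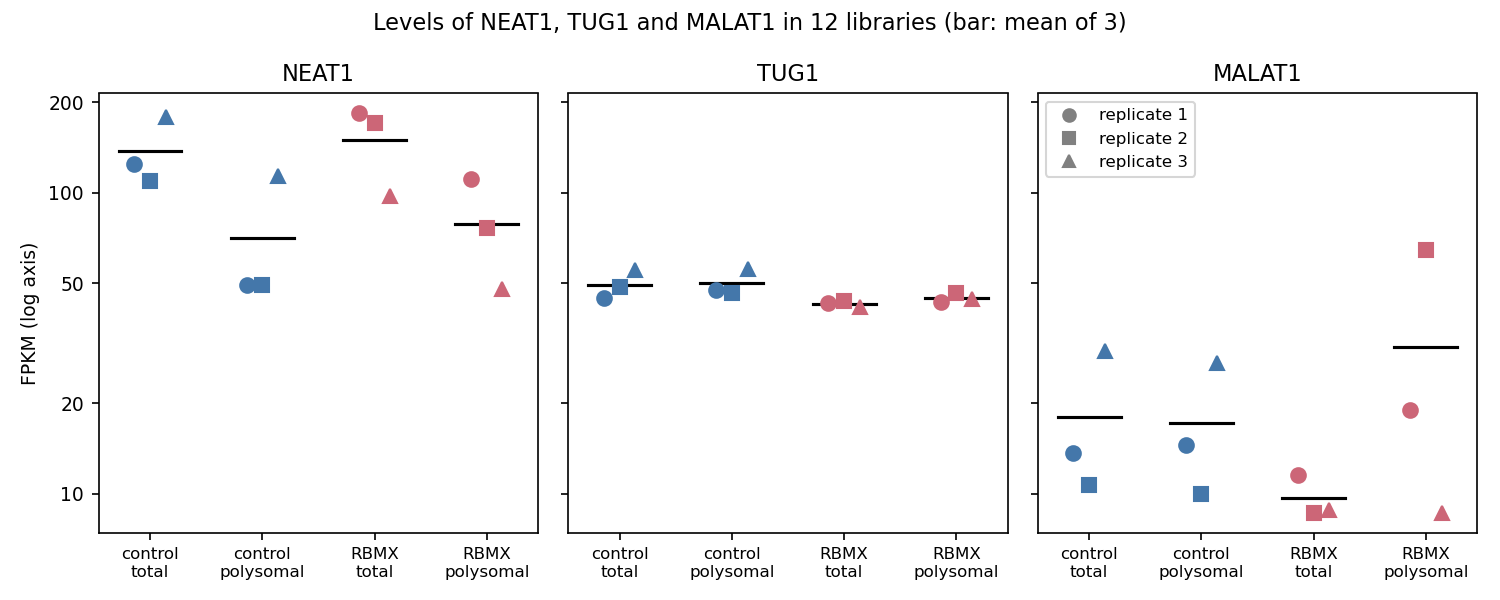
FPKM (log axis) of NEAT1, TUG1 and MALAT1 in the 4 groups, with 1 point per library, the marker giving the replicate and the black bar the mean of 3. NEAT1 is lower in polysomal than in total RNA of the same culture, TUG1 stays between 41.7 and 56.0 throughout, and MALAT1 reaches 64.2 in RBMX polysomal replicate 2.

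Comparing polysomal with total RNA asks whether an RNA makes up a smaller or larger part of the polysomal than of the total library. FPKM is relative to library size, and the median log2 difference over all genes was -0.0025. A ratio therefore places an RNA against the other RNAs and is not its share on ribosomes. Total RNA also held the polysomal fractions, and ribosome loading of the lncRNAs was not tested. NEAT1 was the one member that fell. In control cells its FPKM was 125, 109 and 179 in total and 49.4, 49.5 and 114 in polysomal RNA of replicates 1 to 3. In RBMX cells it was 183, 170 and 97.2 in total and 111, 76.6 and 47.8 in polysomal RNA. Polysomal NEAT1 was lower than total NEAT1 in each of the 6 cultures, although the groups of both vectors overlapped because cultures differed in level. The log2 ratios on the log2(FPKM + 1) scale were -1.32, -1.13 and -0.65 in control and -0.72, -1.14 and -1.01 in RBMX cultures, with a mean of -0.99 ± 0.26 (SD, n = 6), or 0.502 times the total level. An exact two-sided sign-flip test over the 6 cultures gave p = 0.03125, unadjusted and the smallest that 6 cultures allow. Of all 14676 genes tested, 16.5% were lower and 16% higher in 6 of 6 cultures, and 260 had a lower mean ratio than NEAT1.

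In the fit across all genes over both vectors (limma), the NEAT1 difference was -0.99 with an SE of 0.28 and an adjusted p of 0.0492, just inside the threshold of 0.05. In that comparison 8.93% of the tested genes were called, 6.32% as lower and 2.61% as higher. With the culture as a block, which uses the pairing of both libraries of a gradient, the adjusted p was 0.00376, and it was 0.00466 and 0.00864 when control replicate 3 or RBMX replicate 2 was also left out. These 3 blocked fits also called more genes in general, 3512, 3056 and 3117 of 14676, against 1310 without the block. Without the block, leaving out control replicate 1 or 2, or RBMX replicate 1, 2 or 3, gave adjusted p-values of 0.144, 0.123, 0.0903, 0.176 and 0.0700, and leaving out control replicate 3 gave 0.0185. Within 1 vector the NEAT1 difference was -1.03 ± 0.39 (SE, adjusted p = 0.598 in limma) in control cells, where 0.0818% of genes were called, and -0.95 ± 0.38 (SE, adjusted p = 0.219) in RBMX cells, where 1.34% were. In control cells the call depended on replicate 3, since without it the difference was -1.22 with an adjusted p of 0.0381.

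TUG1 had nearly equal FPKM in both fractions. In control cells its FPKM was 44.5, 48.7 and 55.3 in total and 47.4, 46.5 and 56.0 in polysomal RNA, and in RBMX cells 42.9, 43.8 and 41.7 against 43.4, 46.3 and 44.4. The groups overlapped for both vectors. Its mean log2 ratio was 0.037 ± 0.061 (SD, n = 6; exact sign-flip p = 0.156), and no ratio lay outside -0.065 to 0.090. The limma difference over both vectors was 0.037 with an SE of 0.061 and an adjusted p of 0.761. Of the 3 expressed lncRNAs, TUG1 thus had the smallest difference between fractions and the smallest spread between cultures.

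MALAT1 had ratios near 0 in 4 cultures and high ratios in 2. In control cells its FPKM was 13.6, 10.7 and 29.8 in total and 14.6, 9.97 and 27.2 in polysomal RNA. In RBMX cells total RNA gave 11.6, 8.65 and 8.81, and polysomal RNA 18.96, 64.2 and 8.64. The log2 ratios were 0.090, -0.093 and -0.13 in control and 0.67, 2.76 and -0.026 in RBMX cultures. Their mean was 0.54 ± 1.12 (SD, n = 6; exact sign-flip p = 0.438). In RBMX cells the limma difference of 1.13 ± 0.69 (SE, adjusted p = 0.379) became 0.32 (adjusted p = 0.801) without RBMX replicate 2, and 1.71 (adjusted p = 0.298) without replicate 3, so that 1 library set most of its size. Over both vectors it was 0.54 ± 0.47 (SE, adjusted p = 0.518) and 0.10 without RBMX replicate 2.

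Differences between members in the polysomal to total ratio were compared in 3 pairs, chosen after the values were seen. NEAT1 lay below TUG1 in 6 of 6 cultures, by -1.03 ± 0.29 (SD) on the log2 scale, and MALAT1 lay above NEAT1 in 6 of 6, by 1.54 ± 1.20. The exact sign-flip p was 0.03125 for both, unadjusted and the smallest possible. MALAT1 and TUG1 differed by 0.51 ± 1.10 with MALAT1 lower in 3 of 6 cultures (exact sign-flip p = 0.469).

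**Figure D2:**
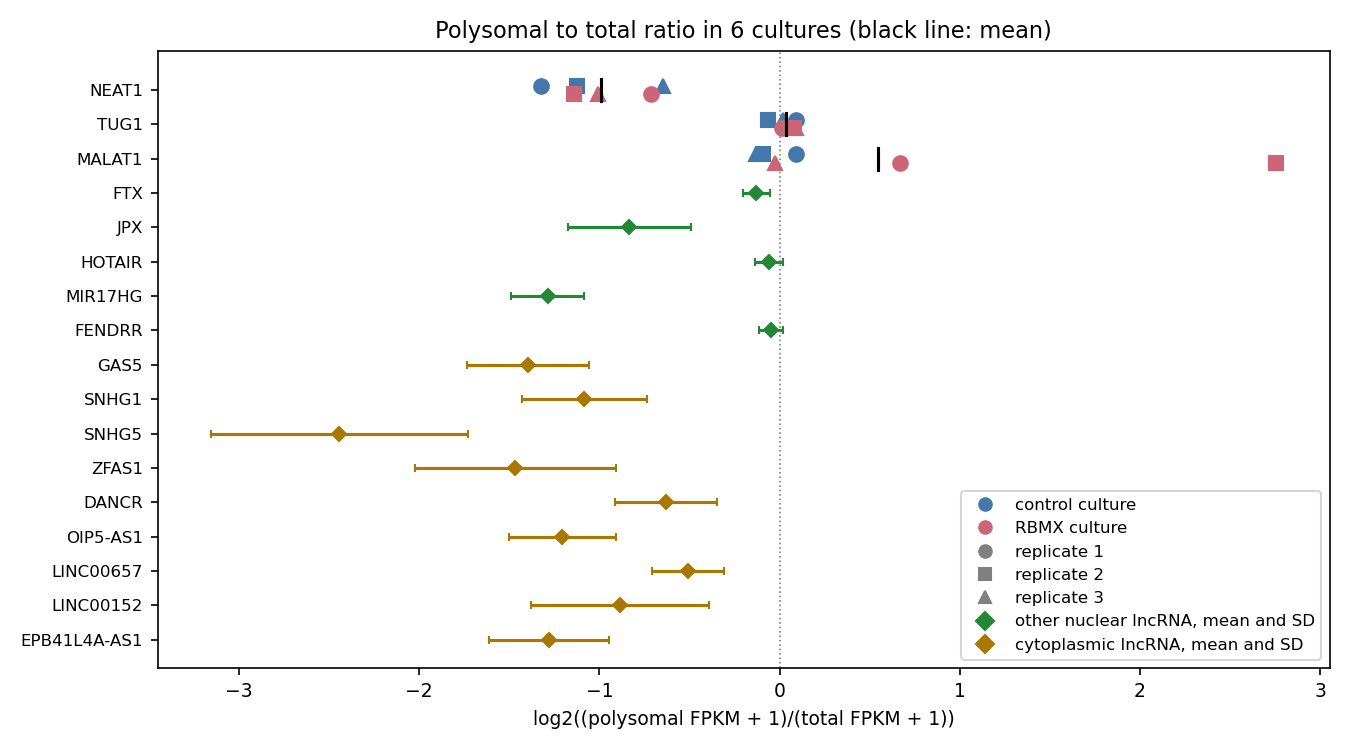
Log2 ratio of polysomal to total level, log2((polysomal FPKM + 1)/(total FPKM + 1)), for the 3 expressed members in 6 cultures (points, black line the mean) and for other nuclear and cytoplasmic lncRNAs (mean and SD over 6 cultures). All 6 NEAT1 points lie below 0, the TUG1 points lie within 0.1 of 0, and 1 MALAT1 point, RBMX culture 2, lies at 2.76.

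Other lncRNAs were lower in polysomal RNA as well, those known as cytoplasmic included. Of 10 other nuclear lncRNAs 5 passed the filter on low values, and over both vectors 2 of them fell and 0 rose. These were MIR17HG, the host of the miR-17-92 microRNA cluster (-1.29 ± 0.26, SE, adjusted p = 0.0177 in limma), and JPX, an activator in X inactivation (-0.83 ± 0.18, adjusted p = 0.0205). The median over the 5 was -0.13, against -0.0025 over all genes. Adding 1 to FPKM shrinks the ratios of low genes such as FTX (0.409 to 0.875 FPKM), whose value is this median. With a minimum mean FPKM of 1, 3 of these lncRNAs were tested, with a median of -0.83. HOTAIR, an RNA associated with PRC2, and FENDRR had mean ratios of -0.059 and -0.047 and were lower in 4 of 6 cultures each. Of 10 cytoplasmic lncRNAs 9 were tested and 8 fell, with a median of -1.20, and all 9 were lower in 6 of 6 cultures. The largest falls were those of SNHG5 (-2.44 ± 0.34, SE, adjusted p = 0.00445) and ZFAS1 (-1.47 ± 0.25, adjusted p = 0.0110), both snoRNA host genes. NEAT1, at -0.99, lay between LINC00152 (-0.89) and SNHG1 (-1.08), that is, within the range of these cytoplasmic RNAs. When single cultures were left out, 4 to 8 of the 9 cytoplasmic and 0 to 2 of the 5 nuclear lncRNAs were called. Of the cytoplasmic ones 4 were called without control replicate 1 or RBMX replicate 2 and 5 without RBMX replicate 1 or 3, and of the nuclear ones 0 without any of these 4 and 1 without control replicate 2. With the culture as a block 9 and 3 were, and so were 3512 of all 14676 genes (1608 higher, 1904 lower).

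The MALAT1 peak in RBMX polysomal replicate 2 came together with other RNAs. The 3 genes most like MALAT1 over the 12 libraries were SCARNA5, SCARNA2 and SCARNA7, small guide RNAs of Cajal bodies (Pearson r = 0.916 each, on log2(FPKM + 1), across libraries that include pairs from 1 lysate). The summed FPKM of 24 SCARNA genes was 754 in that library but higher, at 909, in control total replicate 3, and 654 in RBMX total replicate 1. SCARNA2 had 36.3 FPKM in that library and 0.797 to 10.8 in the others, the 10.8 being in control total replicate 3, where MALAT1 had its second highest level. The clustered histone genes, many of whose mRNAs lack a poly(A) tail as MALAT1 does, were looked at after these values were seen. Their summed FPKM over 49 genes was 2304 in that library and 532 to 783 in the other 11. HIST1H1E had 78.8 FPKM there against 3.51 and 2.98 in the other RBMX polysomal libraries, and HIST1H4C 77.9 against 4.93 and 4.71. Of the 49 genes 42 were highest in this library, at a median of 3.63 times the next highest. In control replicate 3, where MALAT1 was the highest of the control libraries, the histone sum was 661 (total) and 674 (polysomal), within the range of the rest. The part of tail-less RNAs in the MALAT1 values was not tested.

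**Figure D3:**
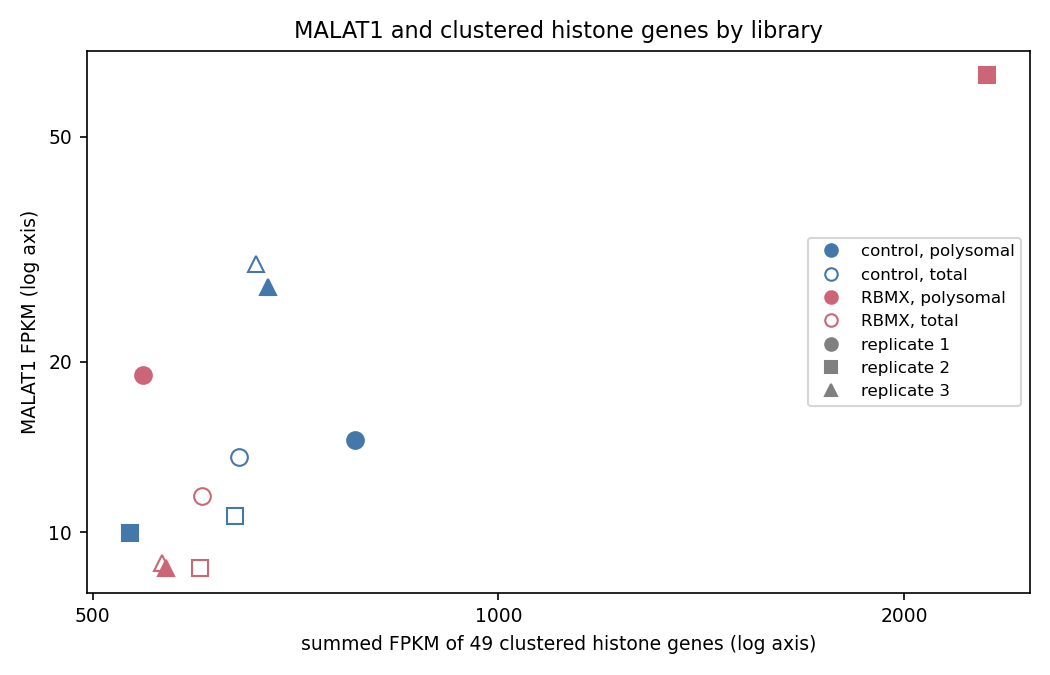
MALAT1 FPKM against the summed FPKM of 49 clustered histone genes, both on log axes, with 1 point per library (filled for polysomal, open for total RNA, marker for replicate). RBMX polysomal replicate 2 stands alone at 64.2 and 2304, while in the other 11 libraries the histone sum stays between 532 and 783.

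RBMX was compared with control in each fraction to ask whether raised RBMX changed the level of the lncRNAs. In such bulk libraries fewer cells with an RNA and less of it per cell cannot be told apart. No member passed the test in total RNA, in polysomal RNA, or for the difference between the fractions, and none had an unadjusted p under 0.05 in these 3 limma comparisons. Over all genes 0.164%, 0.0477% and 0.0204% were called. In total RNA the log2 difference was 0.10 ± 0.30 (SE, adjusted p = 0.879) for NEAT1, -0.71 ± 0.38 (adjusted p = 0.360) for MALAT1 and -0.20 ± 0.09 (adjusted p = 0.292) for TUG1. In polysomal RNA it was 0.18 ± 0.45 (adjusted p = 0.875), 0.46 ± 0.76 (adjusted p = 0.806) and -0.15 ± 0.09 (adjusted p = 0.517) in the same order. The polysomal minus total effect was 0.077 ± 0.58 for NEAT1, 1.18 ± 0.91 for MALAT1 and 0.047 ± 0.13 for TUG1, each with an adjusted p of 1.00. That fit did not use the pairing of the libraries of a culture. With the culture as a block the same differences had smaller SEs of 0.20, 0.70 and 0.066, and again no member passed the test.

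**Figure D4:**
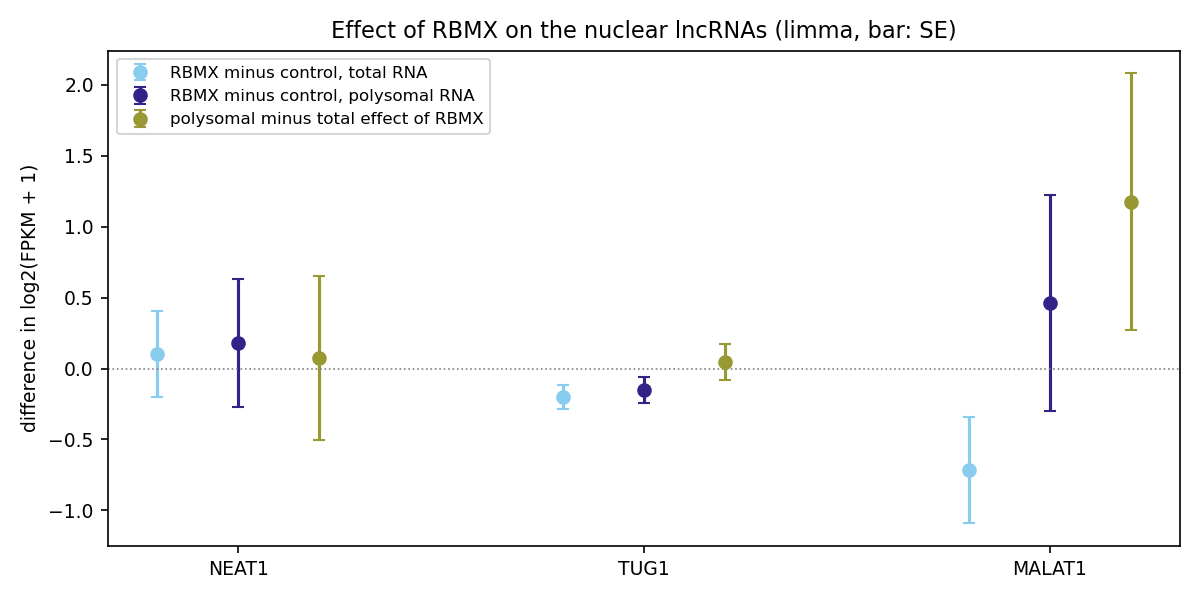
Difference in log2(FPKM + 1) between RBMX and control cells in total and polysomal RNA, and the polysomal minus total effect, for the 3 expressed members (limma without the culture as a block, points with SE bars). The bars of NEAT1 cross 0, and those of TUG1 are short and lie below 0 in both fractions. The bars of MALAT1 are wide. Its points have opposite signs in the 2 fractions, but its bar in polysomal RNA crosses 0. None passed the test.

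Of the 3 tested members, TUG1 was the one whose RBMX and control groups did not overlap. KCNQ1OT1 did not overlap in total RNA either (0.0237 to 0.0246 FPKM in control and 0.0126 to 0.0234 in RBMX cells). Nor did MEG3 (listed at 0 in control and at 0.0230 to 0.0318 in RBMX cells). These levels near 0 were not tested. The share of genes at such levels whose groups lay apart, lower or higher, was not computed. For TUG1 in total RNA the RBMX libraries had 42.9, 43.8 and 41.7 FPKM and the control libraries 44.5, 48.7 and 55.3. In polysomal RNA the highest RBMX value was 46.3 and the lowest control value 46.5. An exact permutation test of 3 against 3 gave p = 0.1 in both fractions, the smallest it allows. Groups lay apart in the lower direction of TUG1 in 15.4% of the 14676 tested genes in total RNA. The share was 12.5% in polysomal RNA and 7.32% in both, and both fractions come from the same cultures. Without control replicate 3 the difference was -0.12 (adjusted p = 0.246) in total and -0.070 (adjusted p = 0.446) in polysomal RNA.

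For NEAT1 the difference between vectors was smaller than the spread between cultures. In total RNA NEAT1 was 138 ± 36 FPKM (SD, n = 3) in control and 150 ± 46 in RBMX cells, and in polysomal RNA 70.8 ± 37.0 and 78.5 ± 31.7. Control replicate 3 was the highest of the controls, and RBMX replicate 3 the lowest of the RBMX cultures, in both fractions. Without control replicate 3 the NEAT1 difference was 0.31 (adjusted p = 0.555) in total and 0.58 (adjusted p = 0.424) in polysomal RNA. MALAT1 in total RNA was 18.03 ± 10.3 FPKM in control and 9.68 ± 1.64 in RBMX cells, groups that overlapped, with a difference of -0.30 (adjusted p = 0.311) without control replicate 3. In polysomal RNA it was 17.2 ± 8.9 and 30.6 ± 29.6, and without RBMX replicate 2 the difference turned to -0.28 (adjusted p = 0.927). The genes most like NEAT1 over the 12 libraries were ENO3, which encodes muscle enolase (r = 0.981), the microRNA host MIR503HG (r = 0.964) and the pseudogene SPACA6P (r = 0.962). Those most like TUG1 were ZNF37BP (r = 0.944), ZNF667 (r = 0.941) and LINC00346 (r = 0.933).

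In control replicate 3 the mRNAs of paraspeckle proteins were low while NEAT1 and MALAT1 were high. SFPQ, a core paraspeckle protein, had 176, 172 and 96.0 FPKM in control total RNA and 156 to 159 in RBMX total RNA. NONO, its partner, had 202, 223 and 108 against 193 to 199. Of 30 paraspeckle genes 24 were lowest in replicate 3 among control total and 25 among control polysomal libraries, against 41.2% and 45.0% of all genes. Their median log2 difference from the other 2 replicates was -0.45 and -0.57, with 0.0060 and 0.00078 over all genes. The HEK293 markers were low there as well, all 6 of them being lowest in replicate 3 among the control libraries of both fractions. VIM had 522, 549 and 248 FPKM and KRT8 151, 146 and 68.0 in control total RNA. High levels there were not particular to NEAT1 and MALAT1. Of the 10 other nuclear lncRNAs, some below the filter, 6 had their highest value of all 12 libraries in control total replicate 3. Each tested cytoplasmic lncRNA was highest in replicate 3 among the control libraries of both fractions. GAS5, for example, had 111, 90.7 and 143 FPKM in control total RNA. The share of all genes highest in that replicate was not computed, and these values describe 1 culture.

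The genes around the lncRNAs were summarised by list over both vectors (polysomal against total RNA) and for RBMX against control. Over all 14676 genes 25.8% had an unadjusted p under 0.05 for the fractions, 18.8% for RBMX in total and 11.7% in polysomal RNA, and the counts of members at that level are to be read against these shares. Of the 30 paraspeckle protein genes 0 were called by limma in either comparison, with medians of 0.0035 for the fractions and of 0.16 for RBMX in both total and polysomal RNA, while 3 had an unadjusted p under 0.05 in each of these 3 comparisons. The RBMX medians include control replicate 3 and were not computed without it. In that culture 24 (total) and 25 (polysomal) of the 30 genes were the lowest of the controls. SFPQ had 0.12 ± 0.21 (SE) and NONO 0.050 ± 0.21 between the fractions. With the culture as a block 4 of the 30 were called higher and 1 lower in polysomal RNA. That blocked fit called 1608 of all 14676 genes higher and 1904 lower, and the blocked counts of the other lists are to be read against these. Among 9 genes of nuclear speckle proteins, where MALAT1 resides, 1 rose in polysomal RNA (ACIN1, a splicing-associated protein, 0.22 ± 0.06, adjusted p = 0.0488) and 1 fell (SRSF2, a splicing factor, -0.23 ± 0.06, adjusted p = 0.0482). None of the 9 was called for RBMX (2 in total and 1 in polysomal RNA with an unadjusted p under 0.05), all 9 had positive differences in both fractions (49.7% and 49.5% of all genes did), and the median was 0.16 in total RNA. Of 12 genes for RNase P, RNase Z and the triple helix binder METTL16, which act on the 3′ ends of MALAT1 and NEAT1, 0 were called between the fractions or for RBMX, with 1, 2 and 1 at an unadjusted p under 0.05. POP1 and POP4, subunits of RNase P, had 0.081 ± 0.11 and -0.054 ± 0.065 between the fractions. Of 7 genes of PRC2 and G9a, chromatin silencers tied to several of these lncRNAs, 0 were called, with 1 between the fractions and, for RBMX, 2 in total and 0 in polysomal RNA at an unadjusted p under 0.05. EZH2 and SUZ12, core subunits of PRC2, had -0.16 ± 0.07 and -0.014 ± 0.058 between the fractions. With the culture as a block 1 of these 7 was called higher and 1 lower, and 1 of the 12 RNase P, RNase Z and triple helix genes was called higher.

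The genes beside the lncRNAs on the chromosome were compared in the same way. Of 9 tested neighbours of MALAT1 and NEAT1 0 fell and 1 rose in polysomal RNA, the kinase gene MAP3K11 (0.23 ± 0.06, SE, adjusted p = 0.0376), and 5 were higher in 6 of 6 cultures, while NEAT1 was lower in all. Over all genes 2.61% were called higher, and 16% were higher in 6 of 6 cultures. FRMD8, next to NEAT1, had 0.10 ± 0.04. Of 5 tested neighbours of TUG1 0 were called in limma (1 with an unadjusted p under 0.05), and 1 was called higher with the culture as a block. MORC2, which shares its promoter region with TUG1, had 0.26 ± 0.14 between the fractions and 0.28 ± 0.20 for RBMX in total RNA, where TUG1 had -0.20. MORC2 in control total RNA was 13.3, 12.5 and 7.75 FPKM, lowest in replicate 3, where TUG1 was highest.

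The domains of the 2 members near 0 differed. In the KCNQ1 domain 8 of 12 genes were tested although KCNQ1OT1 was near 0. KCNQ1, the potassium channel gene on the opposite strand, had 1.78 to 3.12 FPKM, and the labels do not state whether reads were assigned by strand, so reads of the 2 overlapping genes cannot be told apart. KCNQ1 had -0.30 ± 0.10 (SE, adjusted p = 0.207 in limma) for RBMX in total RNA. Between the fractions 1 gene of this domain rose, the tetraspanin gene CD81 (0.24 ± 0.05, adjusted p = 0.0158). The calls among speckle proteins, neighbours of MALAT1 and NEAT1, and KCNQ1 domain genes were 0 in each list when control replicate 1 or 2 or any RBMX replicate was left out. Without control replicate 3, 2 of the neighbours rose and 2 fell, and with the culture as a block 2 speckle genes, 3 neighbours and 1 KCNQ1 domain gene rose and 0 fell. Over all 14676 genes 1566 rose and 1771 fell without control replicate 3, and 1608 rose and 1904 fell with the block. In the DLK1-DIO3 domain 0 of 6 genes passed the filter, and DLK1, which encodes a Notch ligand relative, stayed at or below 0.0886 FPKM, so that MEG3 was low together with its neighbours.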

How the data were processed

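The authors deposited FPKM values for 25268 gene symbols in 12 libraries, 3 cultures per vector. The submitters' processing notes name CASAVA 1.8, TopHat2 2.0.13, Cufflinks 2.2.1, Cuffnorm and hg19, and libraries were made from 500 ng RNA with the TruSeq RNA kit and read as 100-base pairs. The methods of the study name another, later build and annotation and a test on counts (DESeq2), so the transcript models behind the FPKM of NEAT1 and MALAT1 are not known. Depth is unknown, and among genes up to 0.05 FPKM only 11.5% to 23.5% shared one step with control total replicate 1, so no detection limit is given. Columns were matched by name, with 0 left over.

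Values were set to log2(FPKM + 1), which understates changes of low genes, and genes averaging 0.5 FPKM or more (14676) were fitted with limma 3.58.1 (lmFit, eBayes with trend, R 4.3.3), with Benjamini-Hochberg adjustment at 0.05. Fits over both vectors had vector as a term. Exact tests of single members used Python 3.11.15. Total RNA was pooled from the same gradient as polysomal RNA, which pairs the libraries of a culture, and their deviations correlated with 0.605, 0.686 and 0.835 in control and 0.222, 0.0198 and 0.654 in RBMX cultures over genes other than small RNAs, recognised by symbol (0.00177 to 0.311 over all tested genes).

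The members and gene lists were chosen with earlier results of these data known. Named genes are all members, in each list the largest changes among called genes (at most 2 each way) or else the first 2 tested, and the 3 genes most correlated with each member. The histone genes, further list genes and the pairs of members were picked after their values were seen. Alternatives changed the pseudocount (0.1), filter (0.1, 1 or none), scaling, trend, block, samples in the fit and replicates. On simulated data with log2 changes of 1, 86% were recovered over both vectors, 70% for RBMX in total and 68% in polysomal RNA (14676 genes). There each library was drawn independently from a normal distribution with the mean and pooled spread of each gene. The simulation thus held no deviations shared within a culture and no outlying libraries, so these shares need not hold for the real libraries.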

Additional observations from a re-analysis of the deposited data

Results flagged for a closer look

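The MALAT1 polysomal to total log2 ratio of 2.76 in RBMX culture 2 stood far from the other 5 cultures, whose ratios ran from -0.13 to 0.67. Its gap to the nearest of them was 0.724 of the whole range, above Dixon's 95% critical value for 6 values. Chance exceeds this value in about 1 of 20 groups, and the ratios of NEAT1 and TUG1 showed no such gap.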

How the results depend on the processing

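No member changed its call for RBMX in any alternative, in either fraction or for the difference between them (limma). NEAT1 over both vectors kept its direction in all 18 alternatives, with adjusted p-values from 0.00376 to 0.176. It missed the threshold with a minimum mean FPKM of 0.1 (-0.99, adjusted p = 0.0528), with no filter (-0.99, 0.0701), under quantile normalization (-0.92, 0.0567) and with control replicate 3 and RBMX replicate 2 left out together (-1.04, 0.0654; added after seeing the data, as were the blocked fits without these cultures, where leaving out both gave 0.0115). Leaving out single cultures gave -1.06 to -0.93, and in the exact sign-flip test p = 0.0625 for each, the smallest that 5 cultures allow. In control cells it gave -1.22 to -0.89 for NEAT1, past the threshold only without replicate 3, and -0.024 to 0.053 for TUG1.

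For RBMX, leaving out single replicates gave NEAT1 values of -0.065 to 0.39 in total RNA (-0.045 without control replicate 2, -0.065 and -0.011 without RBMX replicates 1 and 2), of -0.11 to 0.58 in polysomal RNA (-0.017, -0.015 and -0.11 without control replicates 1 and 2 and RBMX replicate 1) and of -0.068 to 0.27 for the difference (-0.068 and -0.043 without control and RBMX replicate 1). MALAT1 in polysomal RNA ran from -0.28 to 1.10. The direction is thus not set by these samples, and the cause was not tested.

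Counts of called genes were 12, 196 and 1310 for the fractions in control cells, in RBMX cells and over both vectors, 24 and 7 for RBMX in total and polysomal RNA, and 3 for the difference. With the replicate block (the culture for fractions, the replicate number for RBMX) they were 6, 4, 3512, 13, 3 and 5. Over both vectors the block gave 3056 without control replicate 3, 3117 without RBMX replicate 2 and 4066 without both, and 2445 were called without both and with no block. All 12 libraries in one fit gave 41 and 21 for the fractions and 60 and 22 for RBMX. A minimum of 0.1 gave 62 and 14 for RBMX and no filter 77 and 31, and in RBMX cells no filter gave 61 and quantile normalization 70. Leaving out single replicates gave 13 to 199, 21 to 23, 153 to 3337, 19 to 178, 9 to 126 and 4 to 7. Control and RBMX cultures of 1 number are not stated to share a source, and their deviations correlated with -0.066 to 0.028 over all tested genes and with -0.17 to 0.34 without small RNAs. With all libraries, the block changed no member's call. With an unknown depth, single values near 0 cannot be told from absence, though KCNQ1OT1 was listed at 0 in 0 of 12 libraries.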
